A study of Mus musculus with 9 samples.

Results

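The genes of antigen processing and peptide loading described here were B2m, Tap1, Tap2, Tapbp, Tapbpl, Psmb8, Psmb9, Psmb10, Nlrc5 and H2-Q4. They were chosen by their roles in one pathway, with earlier results of these data known, so what follows describes them. All 10 had at least 1 probe set that carried a single gene symbol, out of 19937 genes measured in that way. A gene with several such probe sets was represented by the one that averaged highest across the 9 arrays, which concerned only Nlrc5. RNA was taken from MC3T3-E1 subclone 4, a clonal preosteoblast line from mouse calvaria, to find genes and pathways that respond to loss of the transcription factor Runx2 during osteoblast differentiation. Cells had been infected with lentivirus that carried either a scramble hairpin (Scr) or a hairpin against Runx2 (shRunx2), selected by sorting for GFP and grown until nearly confluent. The 3 groups, each with 3 arrays labelled as biological replicates, were proliferating Scr cells at day 0, Scr cells at day 9 and shRunx2 cells at day 9. Differentiation was induced with ascorbic acid and beta-glycerophosphate. All cells had therefore been transduced and sorted, the sources name a single shRNA against Runx2, and no shRunx2 array at day 0 was analysed here. The level of Runx2 itself was not analysed here.

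MHC class I molecules display peptides from proteins made inside the cell to cytotoxic T cells. Proteasomes cut these proteins, the Tap transporter carries the peptides into the endoplasmic reticulum, and tapasin holds the empty class I molecule beside the transporter until a peptide binds. Interferons can induce many of these genes, including immunoproteasome subunits that replace the constitutive catalytic subunits, and cells outside the immune system, such as those of bone, also carry class I molecules.

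The promoter windows of members whose levels differed are shown first, because several of these genes lie side by side in the genome. The order Psmb9, Tap1, Psmb8 and Tap2 was uninterrupted by another protein-coding gene on chromosome 17, which carries 6 of the 10 members, and Psmb9 and Tap1 are transcribed away from each other. RefSeq windows (GRCm38.p6, 250 bases before to 50 bases after the start, each 300 bases) were held for 7 of the 10 members, all but Tap2, Tapbpl and Nlrc5. The windows shown are those of B2m (chr2:122147437-122147736, plus strand), Tap1 (chr17:34187306-34187605, plus strand), Psmb8 (chr17:34197945-34198244, plus strand) and H2-Q4 (chr17:35379367-35379666, plus strand), printed 5′ to 3′ with capitals at every motif match.
B2m: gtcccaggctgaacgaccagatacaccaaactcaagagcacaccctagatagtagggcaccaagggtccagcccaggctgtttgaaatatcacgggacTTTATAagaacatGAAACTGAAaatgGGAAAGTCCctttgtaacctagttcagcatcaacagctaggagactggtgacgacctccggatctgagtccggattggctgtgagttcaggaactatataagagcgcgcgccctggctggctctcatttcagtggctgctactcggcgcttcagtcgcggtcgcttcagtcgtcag
Tap1: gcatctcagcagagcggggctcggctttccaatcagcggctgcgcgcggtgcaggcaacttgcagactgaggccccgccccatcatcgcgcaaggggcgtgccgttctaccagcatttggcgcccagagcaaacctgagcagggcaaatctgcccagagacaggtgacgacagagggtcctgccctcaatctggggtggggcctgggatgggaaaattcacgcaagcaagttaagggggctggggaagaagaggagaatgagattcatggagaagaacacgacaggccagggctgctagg
Psmb8: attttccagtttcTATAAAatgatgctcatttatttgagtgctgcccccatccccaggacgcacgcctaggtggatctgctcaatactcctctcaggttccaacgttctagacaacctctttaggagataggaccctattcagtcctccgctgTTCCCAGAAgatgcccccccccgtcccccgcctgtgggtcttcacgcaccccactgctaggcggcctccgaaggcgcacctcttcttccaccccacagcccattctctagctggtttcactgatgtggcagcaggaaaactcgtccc
H2-Q4: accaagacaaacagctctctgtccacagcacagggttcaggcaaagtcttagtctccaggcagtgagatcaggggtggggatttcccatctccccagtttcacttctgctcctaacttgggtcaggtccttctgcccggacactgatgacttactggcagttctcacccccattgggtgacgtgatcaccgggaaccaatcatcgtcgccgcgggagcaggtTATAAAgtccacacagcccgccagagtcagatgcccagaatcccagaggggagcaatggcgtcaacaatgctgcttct
The window of Psmb9 (chr17:34187281-34187580, minus strand) shares 275 bases with that of Tap1, read from the opposite strand, so the Tap1 sequence stands for most of both.

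Motifs were searched on both strands. The core of the interferon-stimulated response element, GAAANNGAA, was found in 1 of the 7 windows, that of B2m, at -139 to -131 from the start, and in 8.57% of 27025 RefSeq windows. The kappaB core, searched only as the string GGACTTTCC, also lay in the B2m window, on the reverse strand from -126 to -118. That exact string was in 0.34% of all windows. The STAT core TTCNNNGAA was found in the Psmb8 window at -97 to -89 and in 8.47% of all windows. The Runx consensus TGTGGT, held by 16.9% of all windows, was in 2 of the 7, those of Tapbp at -92 to -87 and, on the reverse strand, Psmb10 at -13 to -8, and in none of the 4 printed. TATAAA, held by 14.2% of all windows, was at -28 to -23 in H2-Q4, further out in Psmb8 at -237 to -232 and on the reverse strand in B2m at -152 to -147. These matches do not overlap one another. They describe letters in these windows. Each motif was searched only as the pattern written here, so other forms of the same sites were not counted. No match, as for GAAANNGAA in H2-Q4 or any motif in Tap1 or Psmb9, says only that the pattern was not in that stretch.

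The 9 arrays had medians between 8.42 and 8.51 on the log2 scale and correlated at 0.998 or more within each group. Of the osteoblast markers, 7 of 10 measured rose from day 0 to day 9 and 5 were lower in shRunx2 cells, where Phex, an endopeptidase of mineralizing cells, was 3.84-fold lower (adjusted p = 4.70e-08). Other cells were looked for with 15 macrophage and leukocyte markers, whose mean log2 intensity was 7.71 to 7.73 in Scr day 0, 7.75 to 7.79 in Scr day 9 and 7.78 to 7.82 in shRunx2 day 9. Ptprc, the leukocyte common antigen, averaged 7.25, 7.33 and 7.32 in the same order. Of the 15 markers 1 was higher and 1 lower in shRunx2 cells, and 2 rose and 1 fell from day 0 to day 9. Over all genes 2.73% were called higher and 4.66% lower in shRunx2 cells, and 14.5% rose and 17.1% fell from day 0 to day 9. Lyz2 averaged 7.89, 8.69 and 9.11, and was 1.34-fold higher in shRunx2 cells (limma adjusted p = 0.0125). That call was lost without replicate 2 or replicate 3 of either day 9 group. Fcer1g averaged 7.82, 8.32 and 8.05, and was 1.20-fold lower in shRunx2 cells (limma adjusted p = 0.00561). Cd14, which fell, averaged 8.46, 8.14 and 8.28. Array values have no true zero, and the part of other cells in the levels given here was not tested. In RNA from whole cultures, fewer cells of a type and less RNA per cell cannot be told apart.

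At day 9, 6 of the 10 genes were higher in shRunx2 than in Scr cells and none was lower (limma, Benjamini-Hochberg adjusted p under 0.05 over all 19937 genes). The 6 were the 3 immunoproteasome subunits Psmb8, Psmb9 and Psmb10, the transporter subunit Tap1, the loading factor Tapbp and the class I heavy chain H2-Q4. Of all genes tested, 2.73% were called higher and 4.66% lower. Differences were modest: only H2-Q4 also reached 1.5-fold, a size at which 0.396% of all genes were called higher and 0.196% lower. In 7 of the 10 genes the shRunx2 arrays lay wholly above the Scr day 9 arrays, against 8.34% of all genes, the seventh being B2m. The median difference of the 10 genes was 0.27 log2 units, from 0.059 to 0.77, beside -0.0041 over all genes. Because the genes were chosen with these results known, the counts describe them and are no test of the pathway.

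From day 0 to day 9 in Scr cells, 3 of the 10 genes rose, namely B2m, Psmb8 and Psmb9, and 1 fell, Tapbpl. Over all genes 14.5% rose and 17.1% fell. None of the 4 changes reached 1.5-fold, which 2.89% of all genes did upward and 2.25% downward. The Scr day 9 arrays lay wholly above the Scr day 0 arrays in 4 of the 10 genes, the fourth being Tap2, beside 18.1% of all genes. The median change of the 10 genes was 0.078 log2 units, beside -0.016 over all genes. Both comparisons use the same Scr day 9 arrays, with opposite sign, so their values are given side by side and no relation between them was tested.

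**Figure D1:**
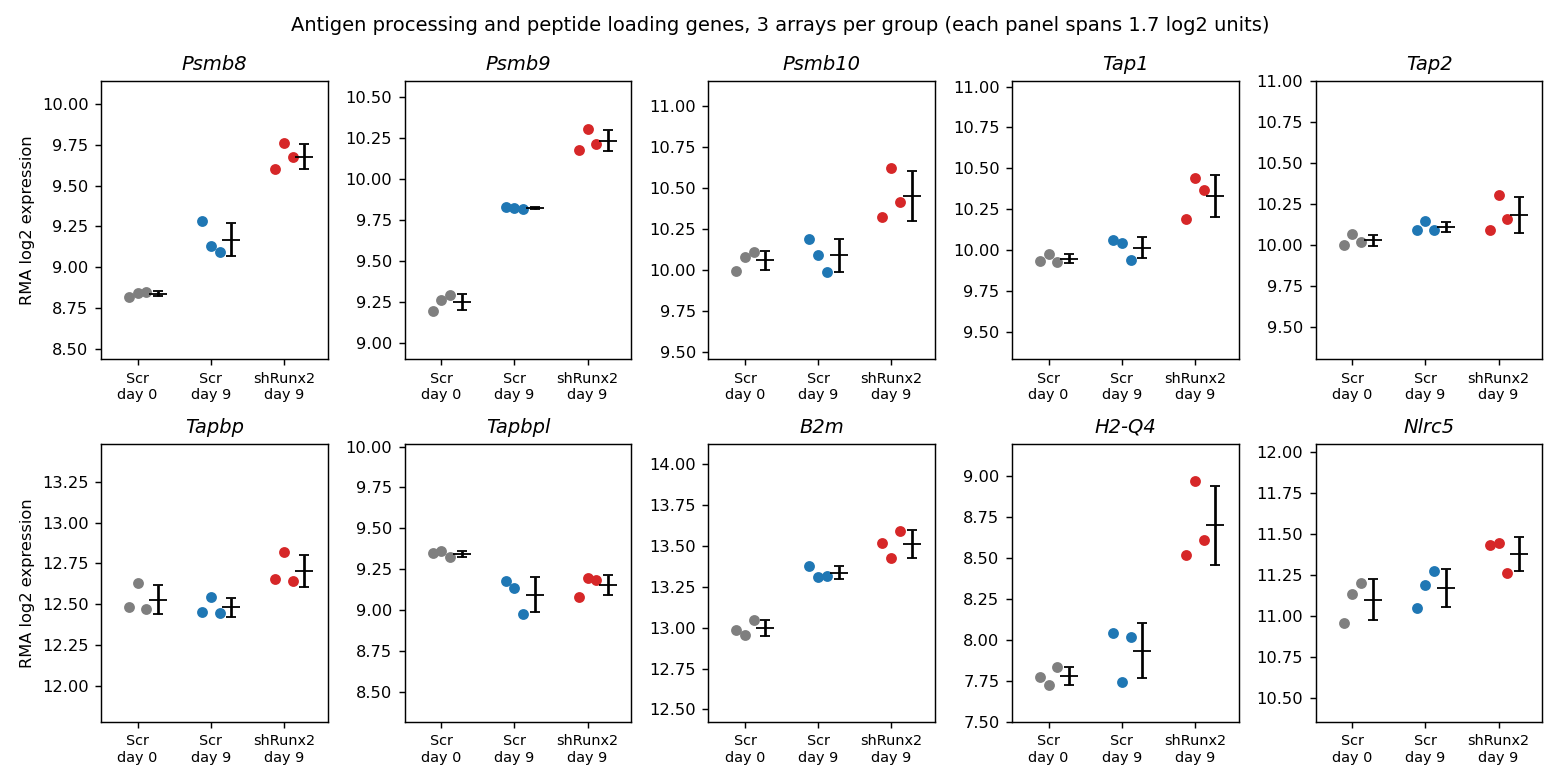
Log2 intensity of each of the 10 genes on the 9 arrays, 1 panel a gene, with the 3 arrays of each group as points and the group mean as a line. The shRunx2 day 9 points of Psmb8, Psmb9, Psmb10, Tap1, Tapbp, B2m and H2-Q4 lie wholly above the Scr day 9 points, and Tapbpl is highest at day 0.

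The 3 immunoproteasome subunits are the inducible catalytic subunits that change the peptides a proteasome makes. For Psmb9, the log2 intensities were 9.19, 9.26 and 9.29 in Scr day 0, 9.83, 9.82 and 9.82 in Scr day 9, and 10.18, 10.31 and 10.22 in shRunx2 day 9. The 3 groups formed 3 separate steps with no overlap. Psmb9 rose 1.49-fold over differentiation (0.57 ± 0.042 log2, SE; limma adjusted p = 8.83e-07) and stood a further 1.33-fold higher in shRunx2 cells (0.41 ± 0.042; adjusted p = 0.000117). Psmb8 read 8.82, 8.84 and 8.85 in Scr day 0, 9.28, 9.13 and 9.09 in Scr day 9, and 9.60, 9.76 and 9.67 in shRunx2 day 9. Its groups were likewise stepped, with a rise of 1.26-fold (0.33 ± 0.055; adjusted p = 0.000623) and a knockdown difference of 1.42-fold (0.51 ± 0.055; adjusted p = 0.000178). The values of Psmb10 were 9.99, 10.08 and 10.11 at day 0, 10.19, 10.09 and 9.99 at day 9 in Scr cells, and 10.32, 10.62 and 10.41 in shRunx2 cells. Here the Scr groups overlapped (0.031 ± 0.074; adjusted p = 0.818), and all 3 shRunx2 arrays lay above both, 1.29-fold over Scr day 9 (0.36 ± 0.074; adjusted p = 0.0124). Psmb10 missed the threshold when Scr day 9 replicate 3 was left out (adjusted p = 0.0518), while both calls of Psmb8 and of Psmb9 held whichever array was left out.

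The constitutive subunits that these 3 replace did not pass the test in the knockdown. Psmb5, the counterpart of Psmb8, differed by -0.10 log2 units (adjusted p = 0.272), Psmb6, that of Psmb9, by -0.049 (adjusted p = 0.614) and Psmb7, that of Psmb10, by 0.072 (adjusted p = 0.524). Over differentiation Psmb5 fell by 0.16 and Psmb7 fell by 0.34 (adjusted p = 0.0208 and 0.000375), the first call being lost without Scr day 0 replicate 2 or Scr day 9 replicate 1 (adjusted p = 0.0842 and 0.0663). With the proteasome activators and assembly factors, 0 of 13 genes of that list passed in the knockdown and 4 fell over differentiation, or 2 without Scr day 0 replicate 1. Psme1 and Psme2, subunits of the interferon-inducible activator, differed by 0.12 and 0.14 (adjusted p = 0.224 and 0.192), and Psme1 passed when shRunx2 replicate 1 was left out (adjusted p = 0.0428). Of the 11 other subunits of the 20S core, none passed in the knockdown and 8 fell over differentiation, or 4 without Scr day 0 replicate 1. Psma4, Psma1 and Psmb2 had the smallest adjusted p among them, and fell by 0.33, 0.28 and 0.26 (adjusted p = 0.000713, 0.00094 and 0.00119).

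Tap1 and Tap2 are the 2 chains of the peptide transporter, which works only as a pair. Tap1 read 9.93, 9.98 and 9.93 in Scr day 0, 10.06, 10.04 and 9.94 in Scr day 9, and 10.19, 10.44 and 10.37 in shRunx2 day 9. The Scr groups overlapped (0.068 ± 0.060; adjusted p = 0.469), and the shRunx2 arrays lay above both, 1.25-fold over Scr day 9 (0.32 ± 0.060; adjusted p = 0.00771). For Tap2 the values were 10.00, 10.07 and 10.02, then 10.09, 10.15 and 10.09, then 10.09, 10.30 and 10.16. The shRunx2 arrays of Tap2 overlapped those of Scr day 9, with a difference of 0.073 ± 0.052 (adjusted p = 0.508), and its Scr day 9 arrays lay just above day 0 (0.084 ± 0.052; adjusted p = 0.277). Whether the 2 transporter genes differ in response was not tested.

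Tapbp encodes tapasin, and Tapbpl the related protein TAPBPR, which edits peptides on class I molecules without the transporter. Tapbp read 12.49, 12.63 and 12.47 in Scr day 0, 12.45, 12.55 and 12.45 in Scr day 9, and 12.66, 12.82 and 12.64 in shRunx2 day 9. The Scr groups overlapped (-0.047 ± 0.059; adjusted p = 0.627), and the shRunx2 arrays stood 1.17-fold above Scr day 9 with no overlap (0.22 ± 0.059; adjusted p = 0.0439), close to the threshold. That call was lost when any 1 array other than Scr day 0 replicate 2 was left out, with adjusted p between 0.0518 and 0.138. Tapbpl ran 9.35, 9.36 and 9.32 at day 0, 9.17, 9.13 and 8.98 at day 9 in Scr cells, and 9.08, 9.20 and 9.18 in shRunx2 cells. It was the single member that fell over differentiation, 1.19-fold with no overlap (-0.25 ± 0.053; adjusted p = 0.00343), and its day 9 groups overlapped (0.059 ± 0.053; adjusted p = 0.616).

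B2m is the light chain that most class I molecules need to reach the surface. Its log2 intensities were 12.99, 12.96 and 13.05 in Scr day 0, 13.38, 13.31 and 13.32 in Scr day 9, and 13.52, 13.42 and 13.59 in shRunx2 day 9. The 3 groups lay in steps without overlap. B2m rose 1.26-fold over differentiation (0.34 ± 0.048; adjusted p = 0.000198), and its shRunx2 mean was 1.13-fold above that of Scr day 9. The knockdown difference just missed the threshold (0.18 ± 0.048; adjusted p = 0.0508) and fell below it without shRunx2 replicate 2 (adjusted p = 0.0249).

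H2-Q4 encodes a class I heavy chain of the nonclassical Q region and had the largest knockdown difference of the 10 genes. It read 7.77, 7.72 and 7.83 in Scr day 0, 8.04, 7.74 and 8.02 in Scr day 9, and 8.52, 8.97 and 8.61 in shRunx2 day 9. The lowest shRunx2 array lay above every Scr array, while the Scr groups overlapped (0.16 ± 0.11; adjusted p = 0.346). The knockdown difference was 1.70-fold (0.77 ± 0.11; adjusted p = 0.0013). Its Scr means, 7.78 and 7.93, lay below the median of every array, and the alternative that left out dim genes did not test it. Class I heavy chain genes are near-identical in parts, and whether probes for H2-Q4 also took up RNA of its relatives was not tested. Among 7 probe sets that carry several class I symbols, 3 were higher in shRunx2 cells, by 1.00 ± 0.054, 0.80 ± 0.058 and 0.28 ± 0.042 log2 units (adjusted p = 7.55e-05, 0.000293 and 0.0112 in a fit over all 34760 probe sets), and the other 4 did not pass. That fit called 1.28% of all probe sets higher and 1.7% lower in the knockdown. The probe sets with the differences of 1.00 and 0.80 carry the same symbols as each other. The same 3 rose over differentiation, by 0.94, 0.38 and 0.45 log2 units (adjusted p = 6.42e-06, 0.00191 and 0.000122), and none of the 7 fell, beside 11.1% of all probe sets called higher and 10.8% lower. None of the 11 other class I and class I-like genes measured by a probe set of their own passed in the knockdown, where their median was 0.034. The nearest were H2-T10 at 0.18 and H2-K2 at 0.23 (adjusted p = 0.141 and 0.164). The rest of that list of 23 genes, H2-K1, H2-D1, H2-L and H2-T23 among them, had no probe set of their own. Over differentiation Hfe, a class I-like regulator of iron uptake, rose 1.60-fold and Mr1, which presents vitamin metabolites, 1.31-fold, and Cd1d1, which presents lipids, fell 1.29-fold (adjusted p = 9.39e-07, 7.41e-05 and 0.00187).

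Nlrc5 is the transactivator that drives class I promoters, as Ciita does for class II. Its probe set with the highest mean read 10.96, 11.13 and 11.20 in Scr day 0, 11.05, 11.19 and 11.28 in Scr day 9, and 11.44, 11.45 and 11.26 in shRunx2 day 9. The third shRunx2 array fell inside the Scr day 9 range, and the difference of 0.21 ± 0.077 did not pass (adjusted p = 0.144). Nlrc5 was the 1 member with several probe sets, 19 in all, and the choice among them decided its call. In a fit of all 34760 probe sets, 8 of the 19 were higher in shRunx2 cells and none lower, beside the 1.28% and 1.7% of all probe sets. A positive difference was seen in 18 of 19, beside 51.3% of all probe sets, and the median was 0.25 (from -0.046 to 0.78). The largest were 1.71-fold (0.78 ± 0.091; adjusted p = 0.00315) and 1.55-fold (0.63 ± 0.11; adjusted p = 0.0250). The probe set with the highest mean had an adjusted p of 0.302 in that fit. The mean over all 19, an alternative chosen after seeing the data, was 0.29 higher (adjusted p = 0.00208). Probe sets of 1 gene share their RNA and are not replicates. Over differentiation 1 of the 19 rose and 18 did not pass, with a median of -0.014, and the probe set with the highest mean differed by 0.072 ± 0.077 (adjusted p = 0.560 in the fit of genes).

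**Figure D2:**
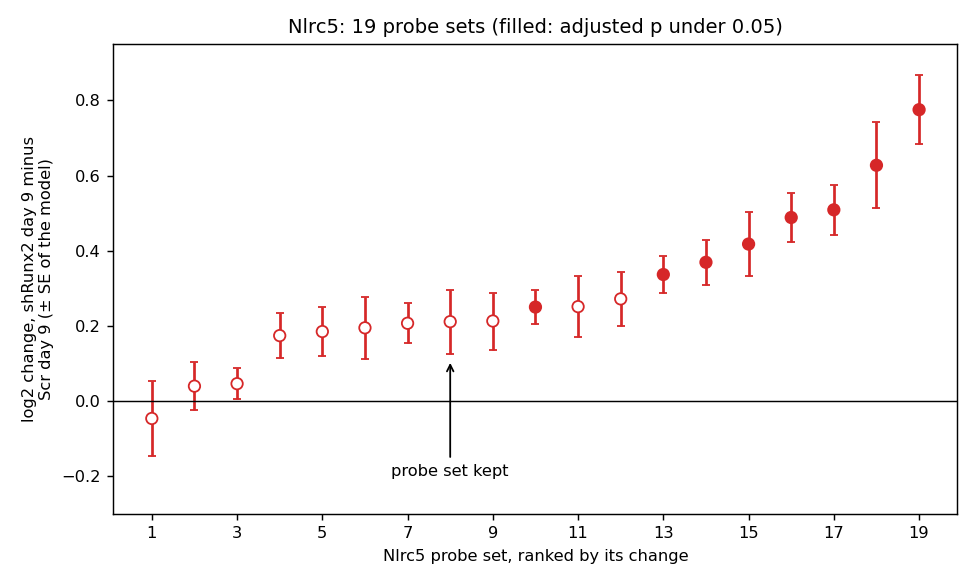
Difference between shRunx2 day 9 and Scr day 9 in log2 units for each of the 19 probe sets of Nlrc5, with bars of 1 standard error, filled where the adjusted p was under 0.05. The probe set that was kept for its highest mean sits at 0.21, below the median of 0.25, and 18 of 19 lie above 0.

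Against proliferating cells, the shRunx2 day 9 arrays were higher in 9 of the 10 genes and lower in 1, Tapbpl, where 13.8% of all genes were called higher and 20.4% lower. This comparison adds the other 2 together and shares arrays with both. Psmb9 reached 1.98-fold (0.99 log2; limma adjusted p = 8.51e-09), H2-Q4 1.90-fold (0.92; adjusted p = 3.96e-05) and Psmb8 1.79-fold (0.84; adjusted p = 3.26e-07). B2m followed at 1.43-fold, and Tap1 and Psmb10 both at 1.31-fold (adjusted p = 6.12e-06, 0.000318 and 0.00132). Nlrc5 at 1.22-fold, Tapbp at 1.13-fold and Tap2 at 1.12-fold passed nearer the threshold (adjusted p = 0.0129, 0.0373 and 0.0357), and Tapbpl was 1.14-fold lower (adjusted p = 0.0159). Each of these last 4 lost its call without some arrays. For Tap2 and Tapbp these included Scr day 0 replicates 1 and 3 and shRunx2 replicate 2 (adjusted p from 0.0881 to 0.149), for Tap2 also shRunx2 replicate 3 (0.0582) and for Tapbp Scr day 9 replicate 3 (0.0501). For Nlrc5 they were Scr day 0 replicate 1 and shRunx2 replicates 1 and 2 (0.0557 to 0.0596), and for Tapbpl Scr day 0 replicate 2 and shRunx2 replicate 1 (0.0530 and 0.0732).

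**Figure D3:**
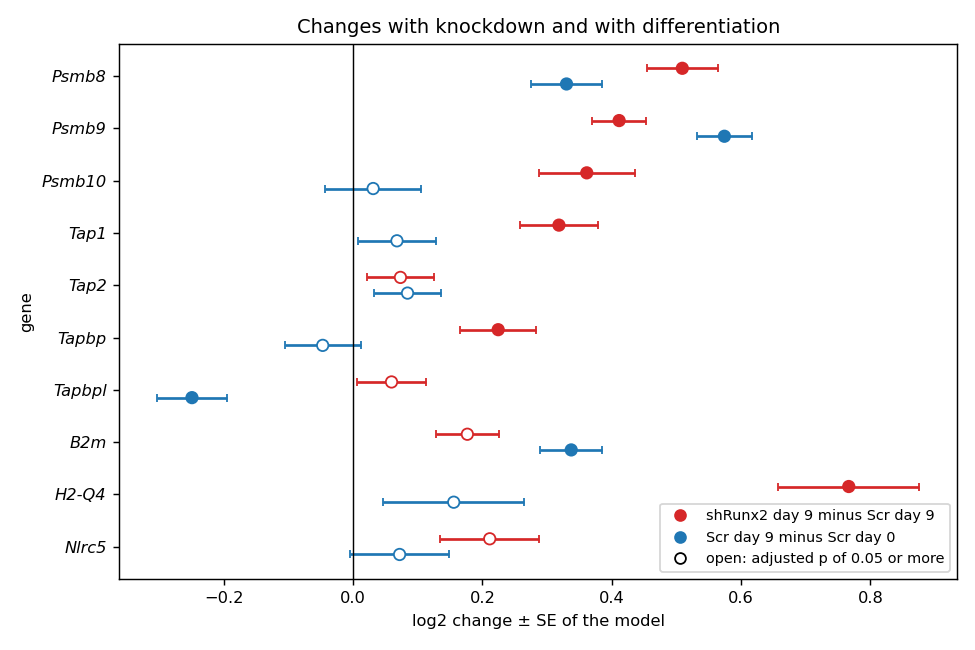
Log2 differences with bars of 1 standard error for each of the 10 genes in the knockdown at day 9 and in differentiation of Scr cells, filled where the adjusted p was under 0.05. Psmb8 and Psmb9 passed in both, B2m and Tapbpl in differentiation, and Tap1, Tapbp, Psmb10 and H2-Q4 in the knockdown, where H2-Q4 stands highest at 0.77.

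Within the shRunx2 group, replicate 2 was the highest array in 9 of the 10 genes, all but B2m. Without it 6 members were still called higher in the knockdown, B2m taking the place of Tapbp. The count was lowest, at 4, without Scr day 9 replicate 3, where Tapbp and Psmb10 were lost.

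Other genes of the pathway were taken from lists. Of 9 loading chaperones and endoplasmic reticulum genes, 1 was higher in shRunx2 cells, Erap1, the aminopeptidase that trims peptides to the length class I holds. Erap1 averaged 9.17 at Scr day 0, 8.90 at Scr day 9 and 9.23 in shRunx2 cells, a fall of 0.28 over differentiation (adjusted p = 0.00347) and a level 1.27-fold higher in the knockdown (0.34 ± 0.059; adjusted p = 0.00499). Calr, the lectin chaperone calreticulin, fell by 0.21 over differentiation and differed by 0.066 in the knockdown (adjusted p = 0.000988 and 0.391). Among the 9, 5 fell over differentiation, with Pdia6, a disulfide isomerase, and Hspa5, the general chaperone BiP, down by 0.44 and 0.25. Of 7 cytosolic peptidases that trim or destroy peptides, Blmh was lower in the knockdown, by -0.21 (adjusted p = 0.0180), a call lost without replicate 1 or replicate 3 of either day 9 group (adjusted p from 0.0598 to 0.0715).

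The MHC class II pathway, by which professional antigen-presenting cells show peptides from outside, had 3 of 10 measured genes higher in the knockdown and 1 lower. H2-Aa, a class II chain, was 1.52-fold higher, Cd74, the invariant chain, 1.44-fold and H2-DMa, which edits class II peptides, 1.33-fold (adjusted p = 0.000445, 0.000211 and 4.27e-05). Ifi30, a thiol reductase of lysosomes, was 1.20-fold lower (adjusted p = 0.00683). H2-Aa averaged 7.48 at Scr day 0 and 7.40 at Scr day 9 and lay 0.60 ± 0.074 log2 units above the latter in shRunx2 cells. Ciita, the class II transactivator, differed by 0.054 (adjusted p = 0.587). Class II genes are also genes of the leukocytes whose markers are given above, and their part in this result was not tested.

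Of 16 transcription factors of class I promoters, 3 were higher in shRunx2 cells and 3 lower. The higher ones were Irf7 at 2.32-fold, Irf9 at 1.73-fold and Stat2 at 1.66-fold (adjusted p = 2.38e-05, 8.50e-06 and 1.31e-05), all of the type I interferon response. Irf1, which binds class I and immunoproteasome promoters, differed by 0.15 (adjusted p = 0.0748) and fell by 0.44 over differentiation (adjusted p = 1.22e-05). Nfya, a subunit of the CCAAT-binding factor NF-Y, was lower by -0.19 (adjusted p = 0.0108). The 3 lower calls of this list became 1 without Scr day 9 replicate 1, shRunx2 replicate 1 or shRunx2 replicate 2. Of 16 interferon ligands, receptors and kinases, Ifngr2, a chain of the interferon-gamma receptor, was higher by 0.20 (adjusted p = 0.0127, or 0.0542 without shRunx2 replicate 2). Socs3, an inhibitor of cytokine signalling, was lower by -0.30 (adjusted p = 0.0104), as was the kinase Jak1, by -0.16 (adjusted p = 0.0383). The Jak1 call was lost without any 1 of 7 arrays, those other than Scr day 0 replicates 1 and 3 (adjusted p from 0.0509 to 0.119). Over differentiation 2 of the 16 rose, Jak1 by 0.49 and Ifngr2 by 0.41 (limma adjusted p = 2.22e-06 and 1.26e-05). Another 3 fell, among them Socs3, which changed by -1.11 (limma adjusted p = 6.84e-08).

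Interferon response genes were counted in 2 further lists. All 19 measured core type I interferon response genes were higher in the knockdown, or 18 without shRunx2 replicate 3. Of the 19, 14 were higher by at least 1.5-fold, and the median was 0.94. Over differentiation 14 of the 19 rose and 1 fell. Of 12 GTPases and other genes known for the interferon-gamma response, 8 were higher in the knockdown, with a median of 0.57. That count was 7 without any 1 array of either day 9 group. Over differentiation 5 of the 12 rose and none fell. Of all genes, 2.73% were called higher in the knockdown, 0.396% with at least 1.5-fold, and 14.5% rose and 17.1% fell over differentiation. These lists were drawn up with the rise of interferon genes in these samples known and are no independent evidence of its direction. Whether the 10 members differ from these lists was not tested.

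**Figure D4:**
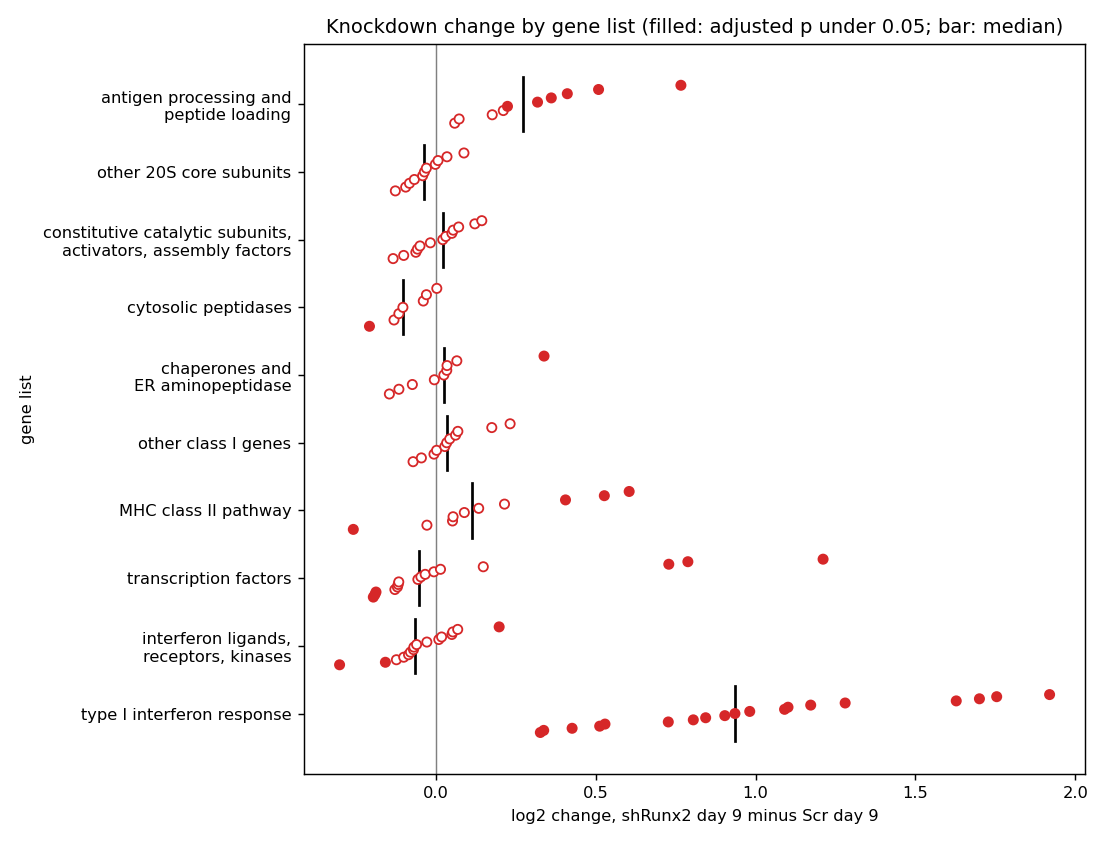
Difference between shRunx2 day 9 and Scr day 9 in log2 units for every measured gene of the members and 9 other lists, with filled points for genes with an adjusted p under 0.05 and a line at each list's median. The members have a median of 0.27. The highest median shown is 0.94 for core type I interferon response genes and the lowest -0.10 for cytosolic peptidases. The other 20S core subunits have a median of -0.035.

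Outside the members, the genes whose pattern over the 9 arrays was most like the mean of the 10 members, each centred on its own mean, were Slc9a8 (Pearson r = 0.997), Ddx60 (0.987), Bst2 (0.987), Irf7 (0.984) and Slfn2 (0.984). The arrays fall into 3 groups, so these values mostly describe how alike the group means lie, and they carry no test. Ddx60, an interferon-induced helicase, was 2.88-fold higher in the knockdown and Bst2, the tetherin that holds virus at the cell surface, 2.25-fold (adjusted p = 3.89e-06 and 1.68e-06). Slc9a8, a sodium-proton exchanger of the Golgi, differed by 0.18 and Slfn2, of the schlafen family, by 1.06 (adjusted p = 0.0111 and 1.10e-05). Among the members, r with their own mean was highest for Psmb8 at 0.985, H2-Q4 at 0.968 and Tap1 at 0.966. It was 0.784 for Nlrc5 and 0.782 for Tapbp, and Tapbpl alone was negative, at -0.41. Each member is part of the mean it is set against, so these values are no measure of agreement among the members.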

How the data were processed

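Total RNA from 9 cultures was hybridised to 9 Affymetrix Mouse Gene 1.0 ST arrays, 3 in each group. The deposited values are log2 intensities of 34760 probe sets, made by the authors with RMA background correction, normalization and summary, and the submitters' processing notes also name limma. Of these probe sets, 21640 carried 1 gene symbol in the platform annotation, 1321 several and 11799 none, and the probe set with the highest mean over the 9 arrays was kept for each of 19937 genes.

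Groups were compared in R 4.3.3 with limma 3.58.1 (lmFit and eBayes on all 9 arrays without a replicate block), with Benjamini-Hochberg adjustment over all genes, and the fit was first tested on simulated data. A gene was called at an adjusted p under 0.05, and fold changes are differences of mean log2 values. All 10 members were named, and from each other list mainly the genes with the smallest adjusted p. Members and lists were chosen with earlier results of these data known. Same-numbered arrays of different groups did not deviate together in every pair, so the replicate number was used as a block only as an alternative. Other alternatives were the choice of probe set, a filter on dim genes, the arrays in the fit, the variance model, array weights, 2 rescalings, a 1.5-fold rule and leaving out each array. The sources call these biological replicates of the knockdown experiments without saying whether infections were separate. The p-values set each difference against the spread between these arrays only, whose number limits the precision. Probe sets with several symbols were left out of gene counts.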

Additional observations from a re-analysis of the deposited data

Results flagged for a closer look

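Probe sets that carry several class I symbols were outside the gene comparisons, and in 5 of the 7 the shRunx2 day 9 arrays lay wholly above the Scr day 9 control arrays. The share of all probe sets without overlap was not computed, and over all genes it was 8.34%. Of these 5, 3 also passed an adjusted p under 0.05 (limma, all 34760 probe sets), beside 1.28% of all probe sets called higher, and are given here. The largest, shared by 3 symbols, was higher in shRunx2 day 9 than in Scr day 9 by 1.00 log2 units, with group means of 9.93 at Scr day 0, 10.87 at Scr day 9 and 11.88 in shRunx2 cells. A second, shared by the same 3 symbols, was higher by 0.80, with means of 11.09, 11.47 and 12.27 in the same order. The last, shared by 2 symbols, was higher by 0.28, with means of 9.26, 9.71 and 9.99. The gene behind each signal cannot be told apart from these probe sets. Groups of 3 arrays were not examined for outlying arrays.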

How the results depend on the processing

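Under every alternative run, 0 of the members tested were called lower in shRunx2 than in Scr cells at day 9. Outside the 1.5-fold rule the same counts over differentiation, 3 higher and 1 lower, were found. The knockdown count of 6 ranged from 4, with every probe set tested on its own, to 8 with the mean of all probe sets, and from 4 to 6 when 1 array was left out; against Scr day 0 the leave-one-out counts were 6 to 9 higher and 0 to 1 lower. Without 1 array the median knockdown difference was 0.24 to 0.32 and the median change over differentiation 0.065 to 0.10. That last median was 0.099 with the lowest-mean probe set, 0.045 with arrays centred on their medians and 0.10 after renewed quantile normalization, and the cause was not tested. With the 1.5-fold rule, 1 member was higher in the knockdown, 0 rose and 0 fell over differentiation, and 3 were higher and 0 lower in shRunx2 day 9 against Scr day 0. With the replicate block, 7 were higher in the knockdown, B2m being added (adjusted p = 0.0359 by limma). Deviations of same-numbered arrays correlated at -0.114 to 0.294 in 9 pairs of arrays and those of different numbers at -0.293 to 0.115, so not every same-numbered pair deviated together. Between the Scr groups the same-numbered values were all positive, at 0.294, 0.0823 and 0.285, while those with shRunx2 arrays ran from -0.114 to 0.129. Tapbp did not pass with every probe set tested (0.134) or with only the arrays compared (0.0617), nor Psmb10 with every probe set (0.0629), as adjusted p in the knockdown. B2m passed there under 5 further settings, at adjusted p from 0.0085 to 0.05. The files used here give no background level, and dim genes were left out in 1 alternative, by the median level, which left H2-Q4 untested there.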
